A study of Mus musculus with 28 samples.

Results

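CD4+ T cells from the small intestine of germ-free (GF) mice, which carry no gut microbes, were compared with those of specific-pathogen-free (SPF) mice, which carry a gut flora without listed pathogens. All of these mice had received an isotype control antibody, the control for an antibody against CD3 (aCD3) used in the rest of the series. The 10 GF isotype samples (5 female, 5 male) and the 6 SPF isotype samples (3 female, 3 male) were taken by their labels, 16 of the 28 samples in the series, and no measured value entered the choice. Every mouse of both groups carried the T-bet-ZsGreen genotype, a fluorescent reporter of T-bet, the transcription factor that directs Th1 cells. The cells were sorted as live, CD45+, CD90.2+, TCRb+ and CD4+ from the lamina propria, the connective tissue layer under the gut epithelium, after Peyer's patches and fat had been removed. The antibody dose, the time to sampling, the age and the strain background of the mice were not used here. The labels do not say whether each library came from a single animal, so p-values measure the spread between these libraries, which may in part be technical.

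Helper T cells of the gut wall are sorted into classes by a lead transcription factor and by the cytokines they release. Th17 cells respond to interleukin 23 and release IL-17A, IL-17F and IL-22, which act on the epithelium to strengthen the barrier, and adherent gut bacteria are a well-known inducer of this class in mice. Th1 cells use T-bet and interferon γ, Th2 cells use GATA3, regulatory T cells use FOXP3, and Tr1 cells are FOXP3-negative cells that release IL-10 and that can also express T-bet. A further pair of programs recurs below, both quickly switched on in living cells: the heat shock response, which makes chaperones that refold proteins, and the immediate early genes, which encode the AP-1 factors Fos and Jun.

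Levels are given as scaled TPM, the deposited transcript abundance divided by a factor per library that removes differences in overall composition, with mean ± SD over the libraries. Log2 fold changes are GF minus SPF on the log2(scaled TPM + 1) scale, so folds of low genes come out too small. A gene was called changed when limma, fitted to all genes over the 16 libraries with a sex term, gave a Benjamini-Hochberg adjusted p under 0.05. Between 10293611 and 13193747 reads fell in genes per SPF library and between 6765529 and 17860623 per GF library (exact permutation test, both sides, p = 0.493), and a gene of 10 kb needed 0.123 to 0.323 TPM to reach 3 reads, a floor for counting error only. The markers of CD4 T cells had overlapping sums in the groups, of 2620 to 2869 in SPF and 2458 to 2719 in GF over 12 genes. Cd4 had 220 ± 9.01 (SD, n = 6) in SPF and 219 ± 20.2 (n = 10) in GF, and Cd3e had 342 ± 20.5 and 350 ± 17.0.

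The libraries held transcripts of other cell types. The stromal, B and plasma cell and erythroid sums separated the groups, that of B and plasma cells narrowly, while the others overlapped. The 17 stromal markers summed to 6.69 to 67.6 in the SPF libraries, with the lowest value in male M1, and to 0.993 to 5.02 in the GF libraries, so the groups did not overlap. All 17 had a lower median in GF, and Pdpn was at 0 in all 10 GF libraries. The 16 B and plasma cell markers summed to 142 to 310 in SPF and to 24.8 to 141 in GF. Jchain, the joining chain of secreted IgA and IgM, gave 112 to 273 of this in SPF and 7.91 to 108 in GF. The separation of this sum rests on Jchain. A lower median in GF was seen for 12 of the 16 markers. Other plasma cell markers overlapped, such as Derl3 (0 to 4.04 in SPF, 0.246 to 5.31 in GF) and Txndc5 (5.10 to 8.20 and 5.63 to 9.70). The 6 erythroid markers found in the table summed to 2.92 to 10.9 in SPF and 1.02 to 2.45 in GF, with Hba-a1 and Hba-a2 at 0 in every GF library. These levels are low: only 1 of the 6 had enough reads and TPM to be tested, and it was not called (log2 0.08). The 23 epithelial markers were highest in GF M2 (457) and GF F2 (153), against 11.6 to 54.2 in SPF, and the 19 pancreatic acinar markers were highest in GF F3 (129). The sums of 21 myeloid markers overlapped, at 57.3 to 103 in SPF and 67.8 to 90.3 in GF. In sorted bulk samples, fewer cells of a type and less RNA per cell cannot be told apart.

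**Figure D1:**
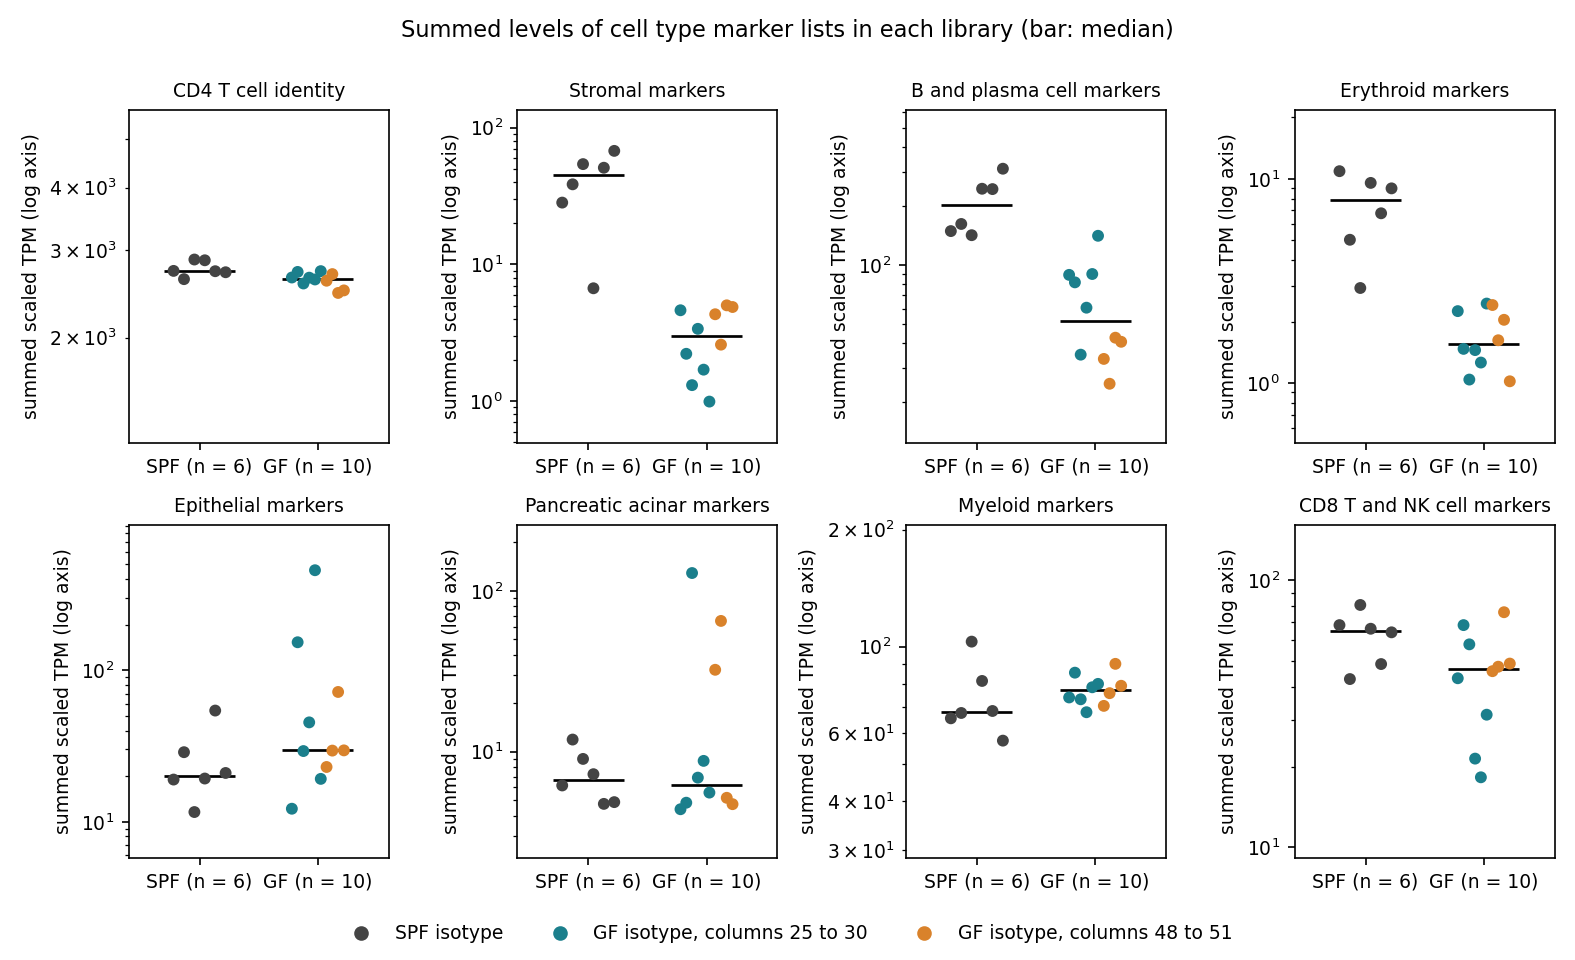
Summed scaled TPM of 8 cell type marker lists (vertical log axes) in each of the 6 SPF and 10 GF isotype libraries, with bars at the group medians and the GF libraries coloured by the number in their column name. Stromal sums lie between 6.69 and 67.6 in SPF and between 0.993 and 5.02 in GF, while the CD4 T cell sums overlap.

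The numbers in the column names of the table fall into runs. The SPF isotype columns carry 1 to 6, 6 of the GF isotype columns carry 25 to 30 and the other 4 carry 48 to 51. No number is shared by SPF and GF, so colonisation and the column-number run cannot be told apart. Among the GF libraries alone, 1410 of 11186 genes (12.6%) differed between the runs 25 to 30 and 48 to 51, and 38 of the 374 genes called between GF and SPF were among them. On the first principal component, with 17.9% of the variance, the SPF libraries lay at 6.21 to 35.7 and the GF libraries at -16.91 to 1.45, and SPF F2 stood apart at 35.7. The second component, with 16.1%, ran from -21.97 to -9.99 in the GF columns 48 to 51 and from -0.01 to 13.37 in the GF columns 25 to 30. No library was a copy of another, with Pearson's r across genes (log2 scale) from 0.954 to 0.990 over all pairs.

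Of 11186 genes tested, 374 (3.34%) differed between GF and SPF under isotype, 224 (2.00%) lower and 150 (1.34%) higher in GF. The lower genes moved further, with a median log2 fold change of -0.53 against 0.33 for the higher ones. At least a doubling or halving on this scale was seen for 43 lower genes and 1 higher gene. In 63 of the lower and 33 of the higher genes the groups did not overlap, where 0.617% of all tested genes had every GF library below every SPF library and 0.358% had every GF library above. The larger differences were in type 3 cytokine and receptor genes, Ccr7, heat shock chaperones, Jun, stromal genes and Jchain. The direction of the whole table depended on scaling: the median gene moved from 0.01 to 0.15 with TPM as deposited, where 1698 genes were higher and 142 lower, and to 0.19 when Rn45s and histones were left out of the total, where 3323 were higher and 149 lower. The counts also depended on single libraries. Higher genes numbered 56 without SPF F1, 86 without SPF F2, 76 without SPF M1, 67 without SPF M2, 93 without GF F1, 79 without GF F2, 65 without GF F3 and 82 without GF M1, and lower genes numbered 134 without SPF F1, 136 without SPF F2, 146 without SPF F3 and 123 without SPF M2. A total of 140 genes, 101 lower and 39 higher, passed the threshold in the full fit and in each of the 16 fits that left out 1 library.

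Of 13 tested members of the Th17 and type 3 list, 5 were lower in the GF libraries and 0 higher, beside 2.00% lower over all genes. The other 8 did not pass the threshold, and the list had a median log2 fold change of -1.27 beside 0.01 over all genes tested. The cytokine Il22 (chr10:118204964-118210046, mm10, plus strand) had 32.7 ± 12.8 (SD, n = 6) in SPF, from 14.2 through a median of 35.2 to 49.6, and 3.50 ± 1.86 (n = 10) in GF, from 0.640 through 3.10 to 6.79. Every GF library was below every SPF library. The log2 fold change was -2.93 ± 0.28 (SE; limma adjusted p = 5.11e-05). It was the lowest among the genes named by rule at a pseudocount of 1, but at a pseudocount of 0.1 Il22 (-3.31) lay above several others, among them Mfap4 (-4.98), Dcn (-4.72), Ccl20 (-4.09) and Gja1 (-3.80). Iltifb, a near copy of Il22 on the same chromosome, had 5.37 ± 1.05 and 0.724 ± 0.584 (log2 -1.94), but reads of the pair may be exchanged, so this value is not separate evidence.

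The other 4 lower members were Il23r, Il17re, Ccl20 and Ccr6, which encode receptors and a ligand. Il23r, the receptor subunit for interleukin 23, had 10.4, 11.8 and 14.6 as lowest, median and highest SPF level and 1.000, 2.51 and 4.91 in GF. The log2 fold change was -1.88 ± 0.19 (limma adjusted p = 5.45e-05). Il17re, a subunit of the receptor for IL-17C, ran from 2.36 to 5.93 in SPF and from 0 to 1.34 in GF (log2 -1.78 ± 0.20). The groups did not overlap for either receptor. Ccl20, the ligand of CCR6, had 7.92 ± 3.09 in SPF and 0.750 ± 0.856 in GF (log2 -2.42 ± 0.28, limma adjusted p = 1.62e-04), with exact zeros in some GF libraries. Ccr6, the chemokine receptor on Th17 cells, had 9.12 ± 2.62 and 3.28 ± 2.19, with SPF F2 at 4.17 inside the GF range (log2 -1.37 ± 0.29, limma adjusted p = 0.0162). The calls of Il22 and of these 4 genes held in all 16 fits without 1 library.

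**Figure D2:**
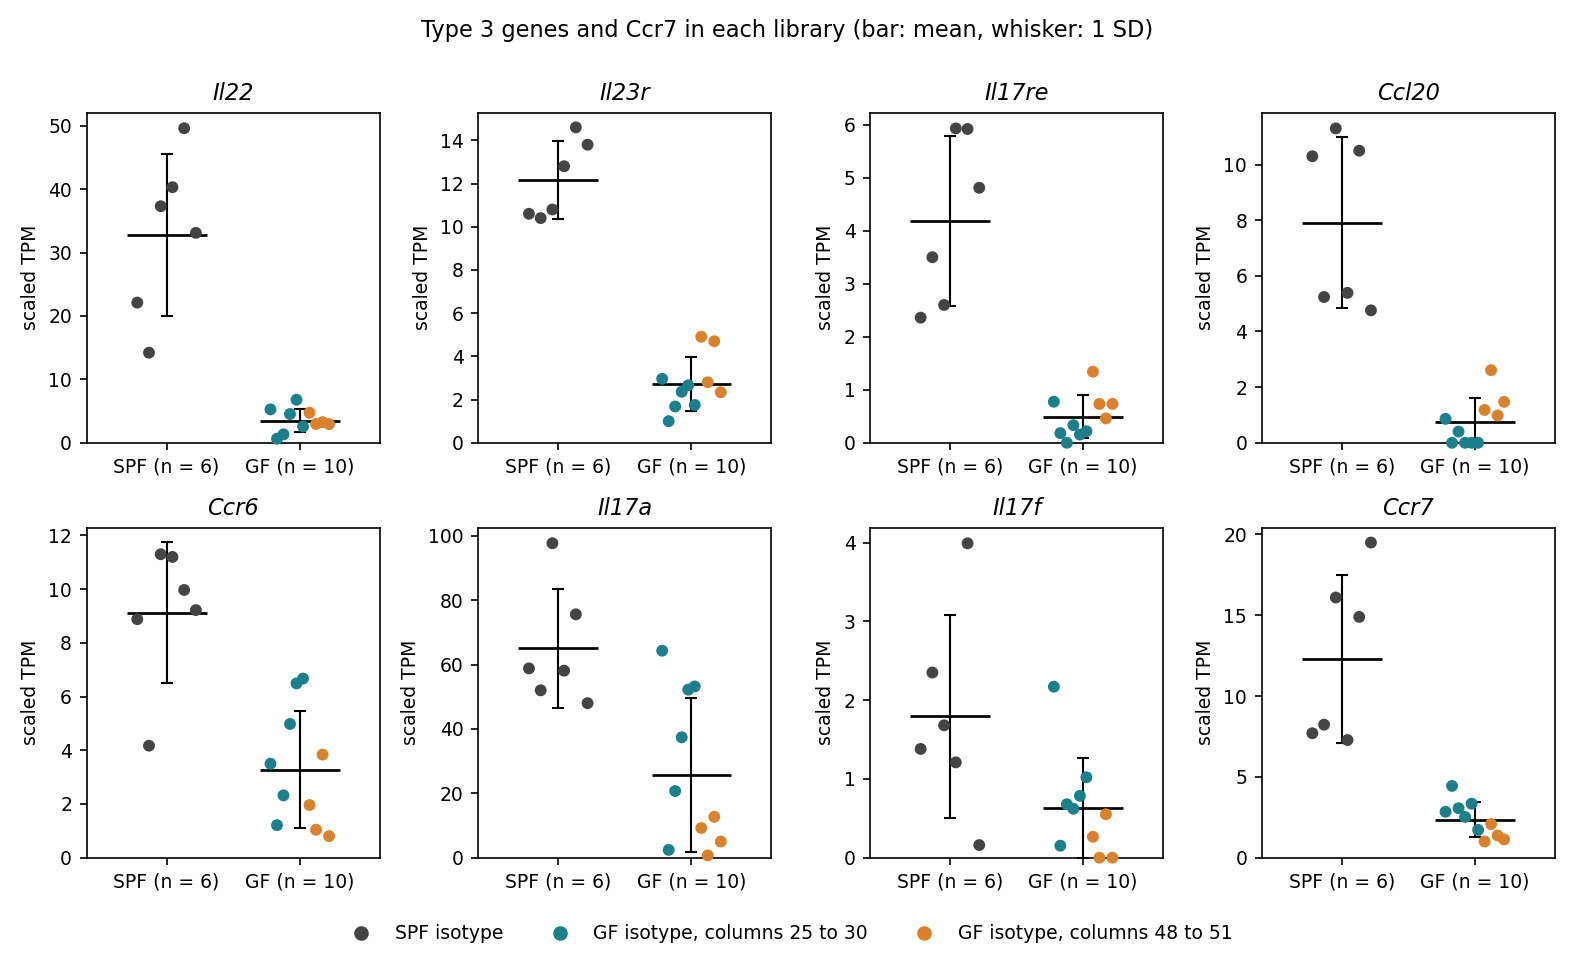
Scaled TPM of 7 type 3 genes and Ccr7 in each isotype library (points), with the group mean (bar) and 1 SD (whisker) and the GF libraries coloured by the number in their column name. Il22, Il23r, Il17re, Ccl20 and Ccr7 do not overlap between SPF and GF, while Ccr6, Il17a and Il17f do.

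The IL-17 cytokines themselves did not pass the threshold. Il17a had 65.0 ± 18.6 in SPF, with a median of 58.5 and a highest level of 97.7, and 25.8 ± 23.9 in GF, from 0.698 through a median of 16.7 to 64.3. Of the GF libraries, F1, M2 and M3 reached the SPF range and the columns 48 to 51 lay at 12.7 or less. The log2 fold change was -2.05 ± 0.68 (limma adjusted p = 0.113), it was -3.38 with the GF columns 48 to 51 alone (limma adjusted p = 0.00769) and -1.17 with the columns 25 to 30 alone (limma adjusted p = 0.250). Il17f was low in both groups, at 1.80 ± 1.29 and 0.624 ± 0.642 (log2 -0.74, limma adjusted p = 0.184). Ncr1, which encodes the receptor NKp46 of NK cells and some innate lymphoid cells, had 4.14 ± 1.33 in SPF and 1.15 ± 1.11 in GF (log2 -1.36 ± 0.27, limma adjusted p = 0.0133), and the 10 CD8 T and NK cell markers summed to 42.7 to 80.9 in SPF and 18.3 to 76.0 in GF. The gate on TCRb and CD4 should remove such cells, and their part in the type 3 levels was not tested.

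Genes of naive and recirculating T cells were in part lower in GF, with 4 of 13 tested members lower and 0 higher, beside 2.00% lower over all genes (median log2 -0.27). Ccr7, the receptor that guides T cells into lymph nodes, ran from 7.28 through 11.6 to 19.5 in SPF and from 0.999 through 2.30 to 4.44 in GF. No library overlapped (log2 -1.96 ± 0.25, limma adjusted p = 3.56e-04). Tcf7, which encodes the factor TCF1 of naive and memory precursor cells, had 72.9 ± 2.33 in SPF and 49.6 ± 6.96 in GF (log2 -0.56 ± 0.08, limma adjusted p = 0.00151), also without overlap. Klf2, a factor that maintains the exit receptors of T cells, had 376 ± 56.8 and 165 ± 98.8 (log2 -1.45 ± 0.38, limma adjusted p = 0.0466), and Actn1, an actin crosslinker, 2.60 ± 0.257 and 1.98 ± 0.175 (log2 -0.27, limma adjusted p = 0.0373). The Ccr7 and Tcf7 calls held in all 16 fits without 1 library, while the Klf2 call held in 3 and the Actn1 call, which ended with TPM as deposited (limma adjusted p = 0.149), in 4, so that the list counted 2 without any of SPF F1, F2, F3, M2 or M3 or of GF F1, F3, F5, M1 or M5. Klf2 also differed among the GF libraries, with 231 in the columns 25 to 30 and 65.4 in the columns 48 to 51 (limma adjusted p = 7.52e-04).

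Single genes of migration and contact followed the same direction. Gpr15, a receptor that directs T cells to the large intestine, had 20.0 ± 8.94 (SD, n = 6) in SPF, from 6.90 to 33.7, and 5.20 ± 2.20 (n = 10) in GF, from 1.70 to 9.75 (log2 -1.71 ± 0.29, limma adjusted p = 0.00415). It was the 1 called gene of 17 tested homing and residency genes. Over all genes 3.34% were called and 2.00% were lower, which stands beside each list count in this paragraph. With Il22 it made up the 2 lower of 8 tested aryl hydrocarbon receptor genes, where 0 were higher. As both are counted in other lists, that count is not a separate result. Gja1, which encodes the gap junction protein connexin 43, ran from 5.37 to 9.16 in SPF and from 0 to 2.88 in GF without overlap (log2 -2.41 ± 0.28, limma adjusted p = 1.60e-04). Cxcr5, the receptor that leads T cells into B cell follicles, had 4.55 ± 2.17 and 1.24 ± 0.450 (log2 -1.22 ± 0.21, limma adjusted p = 0.00509) and was the 1 called gene of 13 tested follicular helper genes. Gpr83, a receptor enriched in regulatory T cells and the 1 called gene of 14 tested in their list, had 2.61 ± 1.12 and 1.02 ± 0.307 (log2 -0.79, limma adjusted p = 0.0238), a call lost without SPF F2, F3, M2 or M3. Cd28, the co-stimulatory receptor, was the 1 called gene of 12 CD4 T cell identity genes, at 267 ± 30.5 and 213 ± 19.1 (log2 -0.32, limma adjusted p = 0.0204), and that call was lost without SPF F2 or M2 and with TPM as deposited (limma adjusted p = 0.232).

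**Figure D3:**
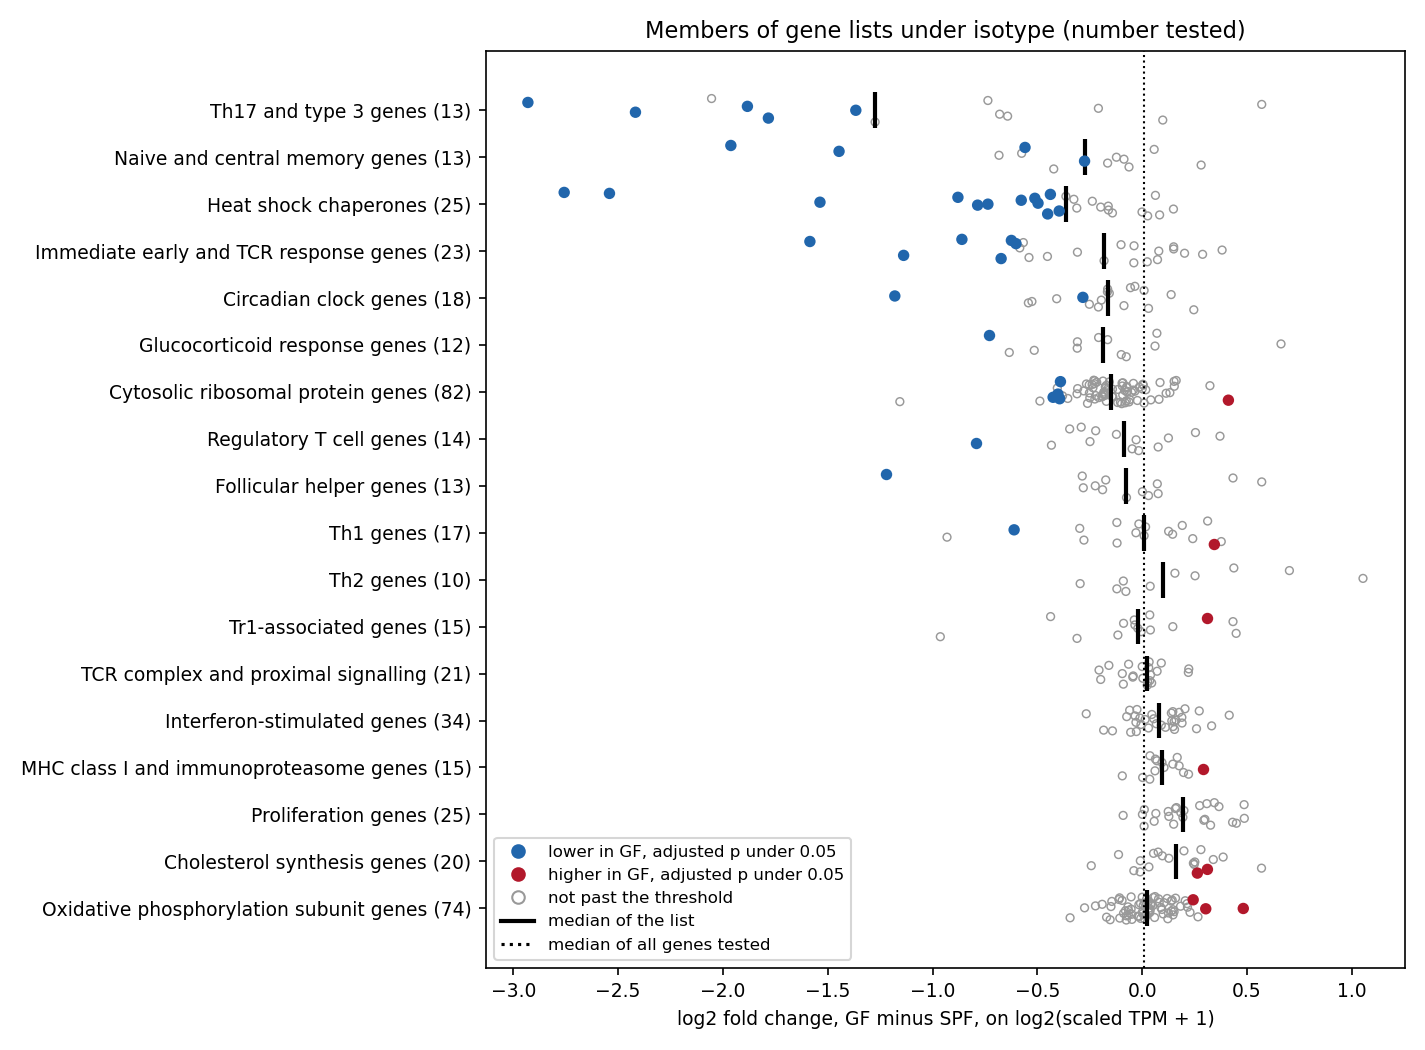
Log2 fold change of each tested member of 18 gene lists (horizontal axis, GF minus SPF on the log2(scaled TPM + 1) scale), with filled points past the adjusted p of 0.05, thick bars at list medians and a dotted line at the median of all genes. Type 3 genes have a median of -1.27 and the heat shock list one of -0.36, while the medians of the Th1 and T cell receptor lists are 0.01 and 0.02.

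Of 25 tested members of the heat shock list 12 were lower in GF and 0 higher, beside 2.00% lower over all genes. The other 13 did not pass the threshold (median log2 -0.36). Besides chaperones this list holds related genes that are not chaperones, and Ier5 and Dedd2 among the 12 are of that kind. The inducible HSP70 genes carried the largest differences of the list. Hspa1a ran from 2819 through a median of 3856 to 5467 in SPF and from 140 through 618 to 1663 in GF. No GF library reached the SPF range (log2 -2.76 ± 0.43, limma adjusted p = 0.00231). Hspa1b had 5422 ± 1405 (SD, n = 6) and 1121 ± 713 (n = 10) (log2 -2.54 ± 0.38, limma adjusted p = 0.00184). The 2 genes are near copies, so the split of reads between them is uncertain and they are best read as 1 signal.

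The promoters of this pair are alike as well, but they lie before the transcripts and do not bear on how reads are split. The 250 bases before the starts of Hspa1a (GRCm38.p6 chr17:34972157-34972406, minus strand) and Hspa1b (chr17:34959239-34959488, minus strand) differ at 3 positions, written in capitals in the RefSeq sequences below. Hspd1 (chr1:55087933-55088182, minus strand), the mitochondrial chaperonin HSP60, is the lower member of the list with a strict heat shock element, GAANNTTCNNGAA on either strand. There 2 overlapping matches span the bases from 144 to 127 before the start, in capitals. Of 20 tested list members in the promoter table, 2 held this motif, Hspd1 and Hspe1, which lie head to head and share these same matches (chr1:55088059-55088076), so the element counts once. The motif was present in 0.456% of the tested genes in the table and 0.514% of all its genes. Hspa1a and Hspa1b hold no match in this window to these strict letters.
Hspa1a: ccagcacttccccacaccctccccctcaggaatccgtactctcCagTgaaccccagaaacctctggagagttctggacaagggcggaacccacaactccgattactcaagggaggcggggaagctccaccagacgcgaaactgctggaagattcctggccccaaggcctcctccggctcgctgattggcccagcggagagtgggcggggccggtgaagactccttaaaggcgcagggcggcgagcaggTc
Hspa1b: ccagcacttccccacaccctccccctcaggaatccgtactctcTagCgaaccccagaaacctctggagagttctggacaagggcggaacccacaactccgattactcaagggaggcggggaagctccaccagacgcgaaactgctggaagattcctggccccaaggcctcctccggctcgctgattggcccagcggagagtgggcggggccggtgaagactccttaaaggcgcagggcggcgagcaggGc
Hspd1: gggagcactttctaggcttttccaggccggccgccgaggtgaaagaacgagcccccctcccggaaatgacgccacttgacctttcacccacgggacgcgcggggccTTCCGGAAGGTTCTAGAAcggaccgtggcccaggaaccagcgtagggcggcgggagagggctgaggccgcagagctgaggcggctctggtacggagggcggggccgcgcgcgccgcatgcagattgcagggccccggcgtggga

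Co-chaperones of HSP70 were among the lower members. Dnajb1, the HSP40 that hands unfolded proteins to HSP70, had 452, 713 and 937 as lowest, median and highest level in SPF and 146, 216 and 353 in GF (log2 -1.54 ± 0.15, limma adjusted p = 5.11e-05). Dnajb4, another HSP40, had 90.8 ± 10.9 and 54.2 ± 7.47 (log2 -0.74 ± 0.08, limma adjusted p = 7.84e-05). Bag3, the HSP70 partner in selective autophagy, had 23.8 ± 5.76 and 13.2 ± 2.08 (log2 -0.79 ± 0.11, limma adjusted p = 6.33e-04). None of these 3 overlapped between the groups. Dnaja1 (log2 -0.50) and Dedd2 (log2 -0.45) were lower as well, and these 7 calls, with Hspa1a and Hspa1b, held in all 16 fits without 1 library. The other 5 called members, Hsph1 (log2 -0.88), Hspa8, Hspd1 (log2 -0.51), Hsp90aa1 and Ier5, each lost the call in 3 or more of those fits, and the list counted 7 without SPF F2 and 7 without SPF F3. With TPM as deposited 7 members were lower and 2 higher, Dedd2 not among them (limma adjusted p = 0.0567) and Hsph1 among them (limma adjusted p = 0.0440). Within GF, Hspa1a had 1087 in the columns 25 to 30 and 284 in the columns 48 to 51 (limma adjusted p = 0.00262).

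The immediate early genes gave a mixed list, with 6 of 23 tested members lower and 0 higher, beside 2.00% lower over all genes (median log2 -0.18). Jun, an AP-1 subunit, ran from 2114 through a median of 2313 to 3025 in SPF and from 481 through 810 to 1312 in GF. The ranges were well apart (log2 -1.58 ± 0.16, limma adjusted p = 5.11e-05). Fos, its partner, had 2810 ± 170 (SD, n = 6) and 1620 ± 518 (n = 10), with a highest GF level of 2378 below a lowest SPF level of 2618 (log2 -0.86 ± 0.14, limma adjusted p = 0.00394). Klf6, an early-response zinc finger factor, had 1309 ± 95.8 and 836 ± 170 without overlap (log2 -0.67 ± 0.13, limma adjusted p = 0.00906). Atf3 (log2 -1.14), Fosb (log2 -0.62) and Jund (log2 -0.60) passed only narrowly, and lost the call in 14, 14 and 12 of the 16 fits without 1 library. The list counted 3 without any of SPF F1, F2, F3, M2 or M3 or of GF F3, F4, F5 or M4. With TPM as deposited 4 members were lower and 2 higher. Within GF, Jun had 973 in the columns 25 to 30 and 653 in the columns 48 to 51 (limma adjusted p = 0.0369).

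**Figure D4:**
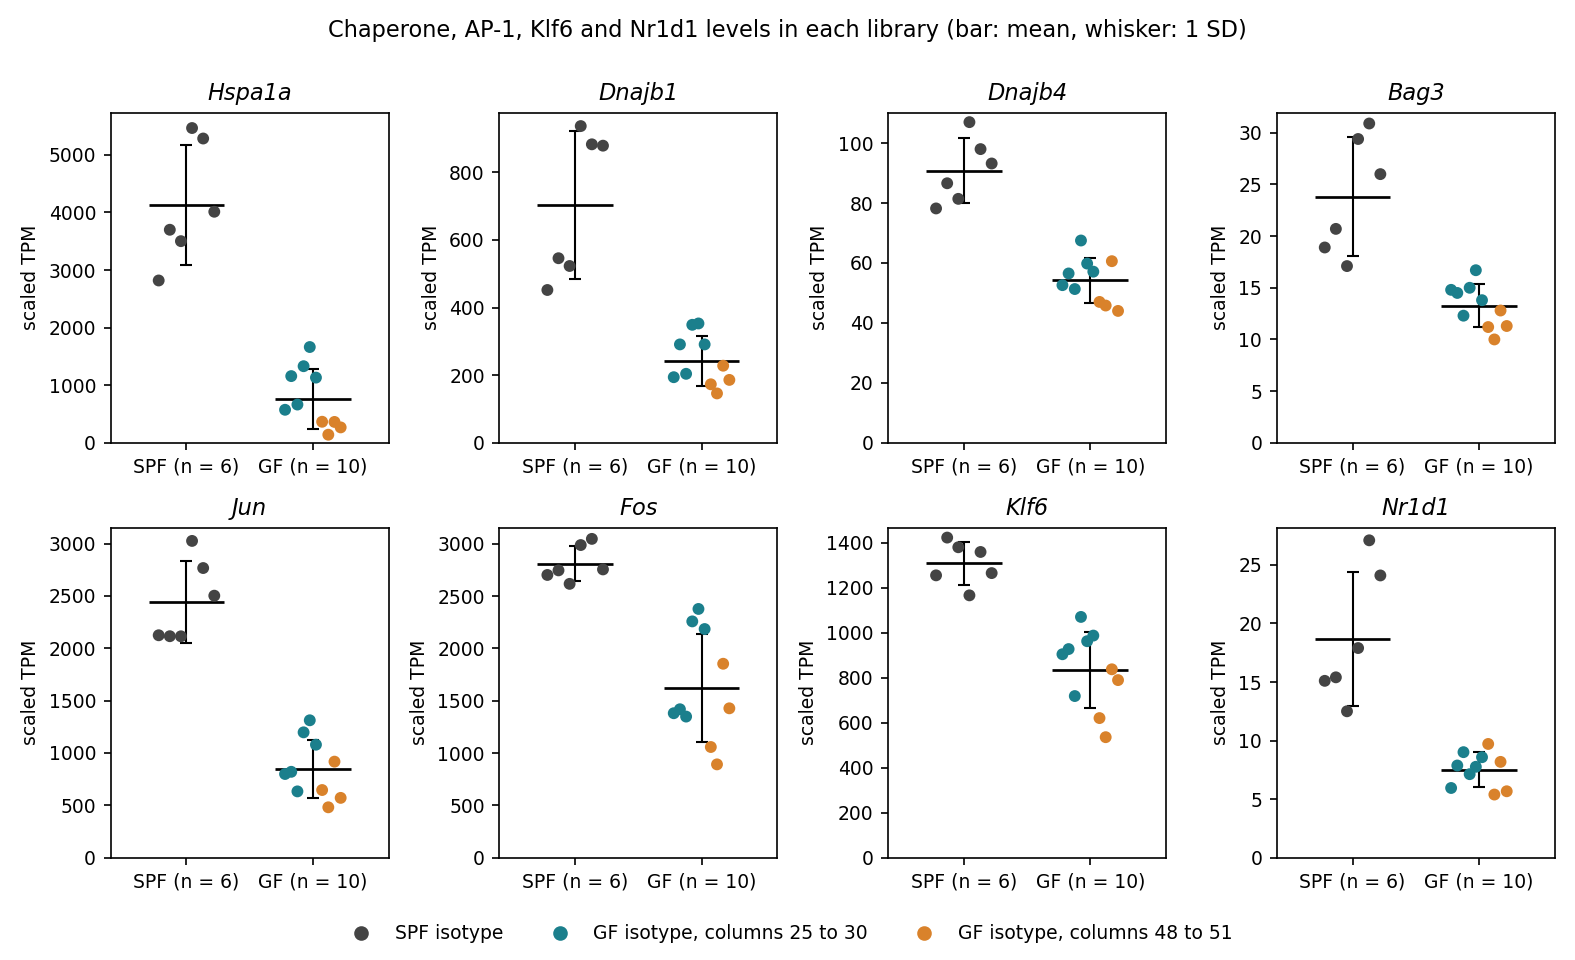
Scaled TPM of 4 chaperone genes, Jun, Fos, Klf6 and Nr1d1 in each isotype library (points), with the group mean (bar) and 1 SD (whisker) and the GF libraries coloured by the number in their column name. SPF Hspa1a lies between 2819 and 5467 and GF Hspa1a between 140 and 1663, with the GF columns 48 to 51 at the lower end.

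Of 18 tested clock genes 2 were lower and 0 higher, Nr1d1 and Nr1d2, beside 2.00% lower over all genes (median log2 -0.17). Nr1d1, which encodes the repressor REV-ERBα of the circadian loop, had 18.7 ± 5.70 (SD, n = 6) in SPF, from 12.5 to 27.1, and 7.53 ± 1.47 (n = 10) in GF, from 5.39 to 9.71. The groups did not overlap (log2 -1.18 ± 0.15, limma adjusted p = 2.67e-04). Its relative Nr1d2 had 56.1 ± 6.41 and 45.8 ± 3.68 (log2 -0.28, limma adjusted p = 0.0161), and was not called with TPM as deposited (limma adjusted p = 0.309). Times of day of sampling were not used here. Tsc22d3, the glucocorticoid-induced leucine zipper, was the 1 called gene of 12 tested glucocorticoid response genes, at 569 ± 98.8 and 348 ± 86.3 (log2 -0.73 ± 0.16, limma adjusted p = 0.0198). This call ended under quantile normalization (limma adjusted p = 0.0807) and with the GF columns 48 to 51 alone (limma adjusted p = 0.161).

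Ribosomal protein genes gave a small shift that scaling turned. Of 82 tested, 4 were lower and 1 higher, beside 2.00% lower and 1.34% higher over all genes. The median log2 of -0.15 became 0.01 with TPM as deposited and 0.05 without Rn45s and histones. Rps19 had 140 ± 25.1 in SPF and 104 ± 11.2 in GF (log2 -0.42), Rplp2 349 ± 65.9 and 261 ± 20.7 (log2 -0.40) and Rps24 704 ± 59.7 and 538 ± 65.3 (log2 -0.39), with limma adjusted p of 0.0261, 0.0258 and 0.0208. Rps27l, a stress-induced relative of a ribosomal protein, was higher in GF, at 30.9 ± 4.66 and 41.3 ± 5.06 (log2 0.41, limma adjusted p = 0.0281). None of these calls held in all 16 fits: those of Rps19 and Rplp2 were lost without SPF F1 or M2, that of Rps24 without SPF F1 or F2 and that of Rps27l without SPF F2, M1 or M3.

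Several of the lowest log2 fold changes belonged to genes of other cell types. Dcn, the fibroblast proteoglycan decorin, had 6.57 ± 3.74 in SPF, with 1.16 as the lowest level, and 0.149 ± 0.161 in GF, with 0.504 as the highest (log2 -2.54 ± 0.27, limma adjusted p = 8.05e-05). Col1a1, type I collagen (log2 -2.13), and Mgp, matrix Gla protein (log2 -2.02), were the other 2 stromal markers that passed the filter on low values, and 14 of the 17 did not pass it. That filter asks for 1 TPM in at least 6 libraries, and there are 6 SPF libraries. A gene under 1 TPM in every GF library, such as Dcn or Mfap4, was thus tested only if every SPF library reached 1 TPM. For such genes the lack of overlap is set by the filter. Mfap4 (log2 -2.42), Serping1 (log2 -2.08), Bgn (5.89 in SPF and 0.584 in GF) and Adamdec1 (log2 -2.51), all known from fibroblasts or macrophages of the gut wall, were lower too. Jchain had 112, 176 and 273 as lowest, median and highest level in SPF and 7.91, 27.3 and 108 in GF, without overlap (log2 -2.58 ± 0.46, limma adjusted p = 0.00636). It was the 1 called gene of 4 tested B and plasma cell markers, beside 3.34% called over all genes. Pecam1, an endothelial marker that T cells also express, had 10.1 ± 0.809 and 7.70 ± 1.05 (log2 -0.36, limma adjusted p = 0.0249), and lost the call without SPF F1, F2 or M1, with TPM as deposited (limma adjusted p = 0.136) and with the GF columns 48 to 51 alone (limma adjusted p = 0.182). The part of such cells in the differences of other genes was not tested.

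A block of 22 lower genes came from a single locus. All 22 tested members of the protocadherin gamma cluster on chromosome 18, named after their values were seen, were lower in GF, with log2 fold changes from -0.61 to -0.35 and mean levels of 2.58 to 9.03 in SPF and 1.82 to 5.60 in GF. The annotated spans of these genes overlap and end at 4 positions, so reads of the shared 3′ exons were counted for each of them, and the 22 calls are not separate. Each held in between 3 and 16 of the 16 fits without 1 library, with limma adjusted p from 0.00509 to 0.0491. Counting overlapping spans once, the 224 lower genes lay at 194 loci and the 150 higher genes at 148.

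Genes higher in GF changed little, and they formed no large group among the lists. Ifnar1, a subunit of the type I interferon receptor, had 26.2 ± 2.60 in SPF, with 30.4 as the highest level, and 40.0 ± 3.97 in GF, with 34.3 as the lowest. All GF libraries lay above all SPF libraries (log2 0.59 ± 0.07, limma adjusted p = 3.56e-04). Srsf1, a splicing factor, had 116 ± 10.1 (SD, n = 6) and 164 ± 11.7 (n = 10), also without overlap (log2 0.51 ± 0.06, limma adjusted p = 1.60e-04). Fnta, the shared α subunit of the farnesyl and geranylgeranyl transferases, ran from 4.63 to 9.12 in SPF and from 9.38 to 13.1 in GF (log2 0.67 ± 0.10, limma adjusted p = 0.00222). Calca, which encodes calcitonin and the peptide CGRP, had the highest log2 fold change of the named genes, 1.31 ± 0.29, with 2.24 ± 1.64 in SPF and 6.23 ± 2.19 in GF (limma adjusted p = 0.0220). SPF F2 was listed at 0 for Calca, SPF M1 reached 4.57 inside the GF range, and the call was lost without SPF F1, at a pseudocount of 0.1 (limma adjusted p = 0.0650), with voom (limma adjusted p = 0.0699) and with the GF columns 48 to 51 alone (limma adjusted p = 0.179).

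Of the other higher genes, the 8 from Samsn1 to Tapbp held in all 16 fits without 1 library, but with the 4 GF columns 48 to 51 alone all but Lfng lost the call. Samsn1, an adaptor that restrains lymphocyte activation, ran from 67.7 through 77.8 to 87.8 in SPF and from 86.9 through 109 to 131 in GF (log2 0.49 ± 0.08, limma adjusted p = 0.00215). Lfng, a glycosyltransferase that tunes Notch, had 21.2 ± 3.17 and 30.6 ± 3.83 (log2 0.51, limma adjusted p = 0.00673). Bcl2a1d, an anti-apoptotic relative of BCL2 with near copies in the genome, had 64.4 ± 6.35 and 85.9 ± 8.77 (log2 0.41, limma adjusted p = 0.00764). Eif2ak2, the double-stranded RNA kinase PKR, had 6.27 ± 0.659 and 9.49 ± 2.22 (log2 0.50), Cox11, an assembly factor of cytochrome c oxidase, 9.27 ± 1.55 and 14.2 ± 2.20 (log2 0.56), and Zdhhc23, a palmitoyltransferase, 8.96 ± 2.31 and 14.3 ± 2.30 (log2 0.63). Itga2, the α subunit of a collagen receptor and 1 of 15 tested Tr1-associated genes, had 3.69 ± 0.298 and 4.80 ± 0.308 without overlap (log2 0.31 ± 0.06, limma adjusted p = 0.00897). Tapbp, tapasin of the MHC class I loading complex, had 162 ± 7.99 and 198 ± 13.9 without overlap (log2 0.29, limma adjusted p = 0.0110). It was the 1 called gene of 15 in its list, beside 1.34% higher over all genes. With TPM as deposited 11 of the list were higher, beside 1698 of all 11186 genes. Nkg7, a granule protein of cytotoxic and Th1 cells, had 1126 ± 159 and 1423 ± 121 (log2 0.34, limma adjusted p = 0.0394), and Irf8 (log2 0.55) and Tmem50b (log2 0.69) were higher too, but these 3 calls held in at most 5 of the 16 fits. In the metabolic lists 3 of 74 tested oxidative phosphorylation genes (Ndufa9, Ndufa8 and Atp5j) and 2 of 20 cholesterol synthesis genes (Sc5d and Stard4) were higher and 0 lower, beside the 1.34% higher over all genes. None of these 5 calls held in all 16 fits without 1 library. With TPM as deposited 17 and 10 were higher, a scaling under which 1698 of all 11186 genes were higher. Ndufa8, a subunit of complex I, had 6.94 ± 1.69 and 9.93 ± 1.24 (log2 0.48, limma adjusted p = 0.0207), a call lost without SPF M2.

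The lead genes of the other T cell classes were not called. Tbx21, the gene of T-bet, had 58.9, 72.1 and 84.3 as lowest, median and highest level in SPF and 74.8, 85.7 and 112 in GF. The groups overlapped (log2 0.31 ± 0.10, limma adjusted p = 0.0874), and with TPM as deposited the gene was called higher (log2 0.47, limma adjusted p = 0.0148). Ifng had 232 ± 25.7 and 215 ± 33.3 (log2 -0.12, limma adjusted p = 0.577), a direction that turned to 0.04 with TPM as deposited. Il10 had 100.0 ± 20.6 (SD, n = 6) and 110 ± 43.7 (n = 10), with GF libraries from 41.1 to 164 (log2 0.04 ± 0.27, limma adjusted p = 0.964). Lag3, an inhibitory receptor found on Tr1 cells, had 14.8 ± 5.06 and 10.9 ± 4.18 (log2 -0.44 ± 0.24, limma adjusted p = 0.352). Of 17 tested Th1 genes, Nkg7 was higher and Il18r1, the receptor for interleukin 18, was lower (log2 -0.61, limma adjusted p = 0.0462), the latter in 3 of the 16 fits. Over all genes 1.34% were higher and 2.00% lower. Of the lists with 0 called genes, the T cell receptor list had 21 tested members, the interferon-stimulated list 34 and the proliferation list 25. A p that misses the threshold does not show that these levels were equal.

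For Gata3, Foxp3 and Mki67 the GF column runs differed from each other, while GF and SPF were not called different. Gata3 had 55.5 ± 5.36 (SD, n = 6) in SPF and 77.4 ± 18.8 (n = 10) in GF (log2 0.44 ± 0.14, limma adjusted p = 0.112). Its GF mean was 91.1 in the columns 25 to 30 and 56.9 in the columns 48 to 51 (limma adjusted p = 7.52e-04), and with the columns 25 to 30 alone it was called higher than SPF (log2 0.70, limma adjusted p = 1.84e-04). Foxp3 ran from 22.4 through 24.9 to 33.1 in SPF and from 9.07 through 22.9 to 46.6 in GF. Its GF mean was 30.8 in the columns 25 to 30 and 11.9 in the columns 48 to 51 (limma adjusted p = 0.00220), and with the latter alone it was called lower than SPF (log2 -1.05, limma adjusted p = 0.00158). Mki67, a marker of dividing cells, had 57.5 ± 19.7 in SPF, 97.9 in the columns 25 to 30 and 42.8 in the columns 48 to 51 (limma adjusted p = 6.74e-04 between the runs). For Foxp3 and Mki67 the direction against SPF turned with the run used. Among called genes, the level also differed between the columns 25 to 30 and 48 to 51 for Ccl20 (0.210 and 1.56, limma adjusted p = 0.00665), Ccr7 (2.99 and 1.39, limma adjusted p = 0.0234) and Gja1 (0.275 and 1.76, limma adjusted p = 0.0274). The same held for Dnajb1 (280 and 183, limma adjusted p = 0.0162), Fos (1829 and 1308, limma adjusted p = 0.00847) and Jchain (55.2 and 13.4, limma adjusted p = 0.0402). Against SPF these 6 genes had log2 fold changes below 0 with either run alone. Il22 had 3.52 and 3.47 and Nr1d1 7.72 and 7.24 in the runs, with limma adjusted p of 0.795 and 0.701.

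The direction was shared by both sexes for 4 of the main genes. Il22 had a log2 fold change of -2.75 in females and -3.11 in males, Hspa1a -2.82 and -2.69, Jun -1.67 and -1.50, and Ccr7 -1.67 and -2.26. The difference between the sexes was called for 0 of 11186 genes (0%) by limma, with 1354 at an unadjusted p under 0.05, and for 0 with TPM as deposited. Tbx21 had log2 fold changes of 0.56 in females and 0.06 in males.

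The same contrast was available in mice that had received aCD3, which engages the T cell receptor, in 6 GF (1 female, 5 male) and 6 SPF (3 female, 3 male) libraries that share no sample with the isotype groups. The GF libraries of that contrast fell into a pair of sets. The libraries labelled GF aCD3 F1, M3 and M4 had 5.39, 7.46 and 6.43% of summed TPM in histone genes, inside the 3.79 to 9.24% of the isotype libraries, while GF aCD3 M1, M2 and M5 had 23.1% or more and the SPF aCD3 libraries 23.8 to 26.8%. The same 3 libraries had a Lag3 level of 8.45 to 13.8, against 508 to 638 in the other GF and 633 to 1010 in the SPF aCD3 libraries. Their Il10 level was 82.4 to 121, against 453 to 762 and 725 to 957. They thus went against their label on these measures, and the comparisons below are given with and without them, a choice made after seeing the data. Without them the GF side has 3 male libraries, and a p that misses the threshold there does not show equal effects.

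Over all 28 libraries, scaled together, 1963 of 11512 genes (17.1%) were higher and 2095 (18.2%) lower in GF under aCD3, and the difference of the 2 effects was called for 1544 (13.4%), or 628 with TPM as deposited. Without the 3 libraries, 97 (0.843%) were higher, 185 (1.61%) lower, and the difference was called for 29 (0.252%). Of the 374 genes called under isotype, 144 were called the same way under aCD3, 42 the other way and 157 differed in effect between the treatments, which became 54, 1 and 8 without them. Il22 had 46.5 in SPF and 4.36 in GF under aCD3, from 14.1 to 78.1 and from 0.333 to 8.58, without overlap. Its log2 fold change was -3.30 (limma adjusted p = 1.11e-05) and -2.91 without the 3 libraries (limma adjusted p = 0.00185), with Ncr1 at 0.302 in SPF and 0.749 in GF. Il23r was lower by log2 -0.79 and -1.05 in the same order, Il17re by -1.48 and -1.55, Ccl20 by -3.79 and -3.73, Gja1 by -2.29 and -2.35, and Il17f, not called under isotype, by -3.40 and -2.61, all 5 called in both fits. Ccr6 (log2 -0.93), Gpr15 (log2 -1.43) and Ccr7 (log2 -2.27) were lower with all libraries. Without the 3 libraries the values were -1.10, -1.22 and -0.58, none of them called (limma adjusted p = 0.203, 0.0835 and 0.588). Ccr6 and Gpr15 thus stayed near their size, while Ccr7 became much smaller. The difference of effects was called for Il23r (limma adjusted p = 0.0374) and Il17f (limma adjusted p = 0.00924) with all libraries and for neither without the 3 (limma adjusted p = 0.336 and 0.178).

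For the chaperones and AP-1 genes the difference between the treatments rested on those libraries for its call. Hspa1a had 383 in SPF and 366 in GF under aCD3, and its effect differed from that under isotype by log2 -2.55 (limma adjusted p = 0.0126), or by -2.30 without the 3 libraries (limma adjusted p = 0.163). Jun had 564 and 530, with a difference of -1.30 (limma adjusted p = 0.0113) and of -0.98 without them (limma adjusted p = 0.167). Dnajb1 had 170 and 187, with a difference of -1.53 (limma adjusted p = 0.00190) and of -1.21 without them (limma adjusted p = 0.0581). Dnajb4 was higher in GF under aCD3 by log2 0.74 (limma adjusted p = 0.0176), but it had 42.6 to 58.0 in the 3 libraries, 14.8 to 20.5 in the other GF and 12.4 to 20.5 in the SPF libraries, and without the 3 the log2 fold change was -0.04 (limma adjusted p = 0.922). Dnaja1 likewise went from 0.47 (limma adjusted p = 0.0103) to 0.27 (limma adjusted p = 0.391). The difference of effects was not called for Hspa8, Hspd1 or Hsp90aa1 in either fit.

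For stromal genes the calls of the difference held in part. Dcn had 0.0492 in SPF and 0.0791 in GF under aCD3, with a difference of effects of -2.46 (limma adjusted p = 2.25e-04) and of -2.34 without the 3 libraries (limma adjusted p = 0.00796). The calls of Col1a1, Mfap4, Adamdec1 and Serping1 also held. Those of Mgp (-2.69, and -2.35 without the 3) and Bgn (-2.36 and -1.98) did not (limma adjusted p = 0.0631 and 0.0568), though their values changed little. Jchain had 14.9 to 72.3 in the 3 libraries against 0.203 to 1.20 in the other GF libraries, and its difference went from -4.32 (limma adjusted p = 0.0130) to -2.06 (limma adjusted p = 0.206). Il10, Ifng and Lag3 were lower in GF under aCD3 with all libraries, by log2 -1.92, -0.89 and -3.52. Without the 3 the values were -0.53, -0.43 and -0.58, none of them called (limma adjusted p = 0.502, 0.110 and 0.372). Low Il10 and Lag3 were among the measures that set these libraries apart. The smaller values of Il10 and Lag3 without them therefore follow in part from that choice. The difference from the isotype effect was called by limma for Il10 (adjusted p = 0.0366) and Ifng (adjusted p = 0.0269) with all libraries, and for neither without the 3 (adjusted p = 0.616 and 0.454). For Lag3 it was called in neither fit (adjusted p = 0.0541 and 0.907).

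**Figure D5:**
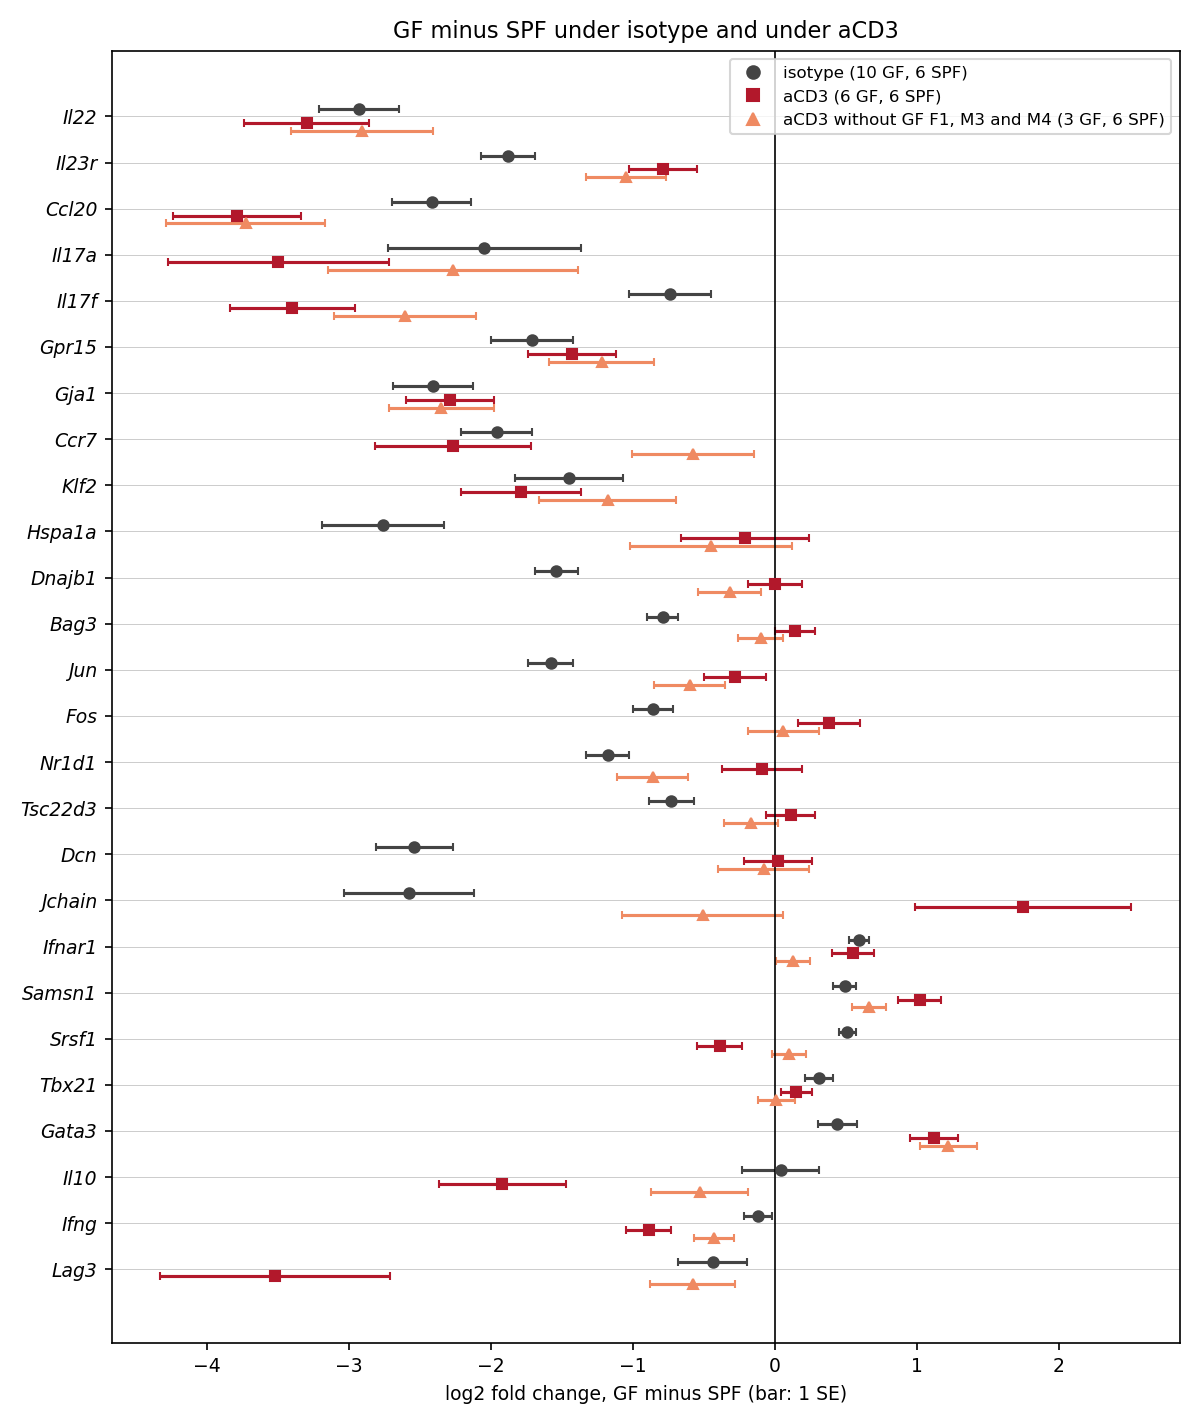
Log2 fold change GF minus SPF (horizontal axis, 1 SE) of 26 genes under isotype (circles, 10 GF and 6 SPF libraries) and under aCD3 (squares, 6 GF and 6 SPF libraries), with triangles for aCD3 without GF F1, M3 and M4. Il22 lies at -2.93, -3.30 and -2.91, Hspa1a at -2.76, -0.21 and -0.45, and Il10 at 0.04, -1.92 and -0.53.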

How the data were processed

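RNA of sorted small intestinal CD4+ T cells was read as 150-base single reads on a NextSeq instrument after a total RNA kit, per the design text of the series, although a label calls the molecule polyA RNA. Per the file headers, the authors computed the deposited TPM with HOMER over RefSeq genes of mouse build mm10. In 99.2% of rows the length is the genomic span with introns, so levels are not compared between genes, and reads of overlapping genes or of RNAs inside introns cannot be separated. The use of strand is not given in the sources used here. The table has 25124 genes, and 26 columns matching no sample of the series were not used.

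In each library 99.8% or more of low values of TPM times length were whole multiples of 1 read within 0.1, which gave the depth, and voom on these reads called 167 genes higher and 260 lower. Deposited TPM was divided by median-of-ratios factors (0.784 to 0.998 in SPF, 0.984 to 1.12 in GF). Genes with at least 1 TPM and 10 reads in at least 6 libraries were tested with limma 3.58.1 (R 4.3.3) on log2(scaled TPM + 1), with a sex term, trended moderation and Benjamini-Hochberg adjustment over all genes. Shares and depth were compared by two-sided exact permutation over 8008 arrangements. Named genes are 17 fixed ones, 1 of which is not reported here, up to 4 called members with the largest change per list and the 15 highest and 15 lowest called genes with at least 5 TPM and 20 reads in a group, without predicted genes and small RNAs, and further members were named to complete a list's count. The members and lists were chosen with earlier results of these data known. Alternatives were other scalings, pseudocounts, filters, tests, sets of libraries, each library left out and, added after seeing the data, 3 GF aCD3 libraries left out. Replicate names shared by SPF and GF did not pair libraries (correlations of deviations from -0.12 to 0.0441). Promoters and motif counts come from RefSeq for GRCm38.p6. Python 3.11.15, NumPy 2.4.6, pandas 2.3.3 and SciPy 1.17.1 were used.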

Additional observations from a re-analysis of the deposited data

Results flagged for a closer look

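A library far from the rest of its group was looked for in 182 pairs of a group and a value, and 9 were found, a share near the 1 in 20 that chance gives. SPF F3 had 22.9% of summed TPM in the ribosomal RNA precursor Rn45s, next to 14.9% in the nearest SPF library, and the highest Rplp2 level of its group, 477 next to 343. GF M2 had an epithelial marker sum of 457 next to 153, and GF F3 an acinar marker sum of 129 next to 65.0. Low values in a group were those of Ccr6 in SPF F2 (4.17, nearest 8.88), Gja1 in SPF F3 (5.37, nearest 7.89), Gpr83 in GF F5 (0.356, nearest 0.816) and Cd3e in SPF M3 (303, nearest 337). Dedd2 was high in SPF M1 (51.8, nearest 38.3).

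For the genes below, the GF minus SPF effect differed between isotype and aCD3 by the interaction test of limma at an adjusted p under 0.05, and each value is the isotype effect minus the aCD3 effect on the log2 scale. Among type 3, naive and ribosomal genes the differences were -1.06 for Il23r, 2.70 for Il17f, 0.88 for Actn1 and 1.18 for Rps27l. Among members of the heat shock list they were -2.55 for Hspa1a, -2.37 for Hspa1b, -1.53 for Dnajb1, -1.24 for Hsph1, -0.96 for Dnaja1, -1.47 for Dnajb4, -0.92 for Bag3, -0.81 for Dedd2 and -0.77 for Ier5. Among early, clock and glucocorticoid genes they were -1.30 for Jun, -1.24 for Fos, -0.76 for Klf6, -1.49 for Atf3, -0.86 for Fosb, -0.71 for Jund, -0.99 for Nr1d2 and -0.84 for Tsc22d3. Among genes of other cell types they were -2.46 for Dcn, -2.35 for Col1a1, -2.69 for Mgp, -2.25 for Mfap4, -2.73 for Adamdec1, -2.25 for Serping1, -2.36 for Bgn, -4.32 for Jchain, -1.82 for Ncr1 and -0.65 for Pecam1. Among genes higher in GF under isotype they were 0.46 for Fnta, 0.59 for Cox11, 0.87 for Lfng, 0.90 for Srsf1, 0.97 for Eif2ak2, 0.49 for Tapbp, 0.90 for Nkg7, 0.63 for Ndufa8, 0.50 for Atp5j, 0.37 for Sc5d, 0.50 for Stard4 and 1.11 for Irf8. Among genes not called under isotype they were -0.68 for Gata3, 1.96 for Il10 and 0.77 for Ifng. Without the libraries labelled GF aCD3 F1, M3 and M4, which stood apart from the other aCD3 libraries, 6 of these 46 differences passed the threshold, those of Dcn, Col1a1, Mfap4, Adamdec1, Serping1 and Lfng, and 40 did not, a setting chosen after seeing the data. Some of the 40 stayed near their size, such as Hspa1a (-2.30), Atf3 (-1.45) and Cox11 (0.58). Others became much smaller, such as Nr1d2 (-0.10) and Irf8 (0.35).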

How the results depend on the processing

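All 224 lower and 150 higher genes kept their sign in the other scalings, pseudocounts, filters, tests and sets of libraries that tested them and in the 16 fits without 1 library. The counts moved more than the signs. Higher and lower genes numbered 1698 and 142 with TPM as deposited, 3323 and 149 without Rn45s and histones, 237 and 296 with array weights, 368 and 370 with the GF columns 25 to 30 alone, 77 and 170 with the GF columns 48 to 51 alone, 61 and 128 in the fit over all 28 libraries, 265 and 274 in that fit without GF aCD3 F1, M3 and M4 (chosen after seeing the data), and 1 and 43 past a doubling or halving (log2 change of 1 or more). The replicate block takes shared names as pairs, so the GF columns 48 to 51, which share none, carry no weight in it. With it 89 were higher and 166 lower, beside 368 and 370 for the columns 25 to 30 without the block, 142 of the 374 calls were shared with the fit without it, and no SPF library correlated best with its own name in GF, so the names pair nothing. Leaving out 1 library gave 56 to 148 higher and 123 to 231 lower genes, 7 to 12 lower members of the heat shock list, 3 to 6 lower early genes, 2 to 5 lower naive genes and 5 to 7 lower type 3 genes. TPM as deposited gave 7 lower members of the heat shock list and 628 genes whose effect differed with aCD3, against 1544, and leaving out GF aCD3 F1, M3 and M4 gave 29. Of 71 called genes named in the text, quantile normalization ended 13 calls (Klf2, Hsph1, Hspd1, Hspa8, Hsp90aa1, Fosb, Jund, Tsc22d3, Rps24, Irf8, Stard4, Cd28 and Il18r1), TPM as deposited 13 (Actn1, Dedd2, Hspd1, Hspa8, Hsp90aa1, Ier5, Fosb, Jund, Nr1d2, Rps24, Pecam1, Cd28 and Il18r1) and the 4 GF columns 48 to 51 alone 33, among them Gpr15, Cxcr5, Ncr1, Mgp, Bgn, Samsn1, Bcl2a1d, Eif2ak2, Cox11, Zdhhc23, Itga2 and Tapbp. The Rn45s share, GF minus SPF, ran from -2.36 to -0.400 percentage points (exact permutation p = 0.0332 to 0.672), the only p under 0.05 being the one without GF M5 (-2.30). Directions that reversed were all of uncalled genes. Il10 went to -0.16 with the GF columns 48 to 51 alone and ran from -0.06 to 0.18 without 1 library, Ifng to 0.04 with TPM as deposited and 0.08 without Rn45s and histones, Foxp3 to 0.22 with the columns 25 to 30 alone and to the same 0.22 with the replicate block, which rests on those columns, and Mki67 to -0.37 with the columns 48 to 51 alone. Cd4 went to 0.15, 0.19 and 0.03 under the 3 other scalings, to 0.08 with the columns 48 to 51 alone, and ran from -0.03 to 0.02 without 1 library. The cause was not tested. Colonisation cannot be told apart from the column-number run.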
